A study of Mus musculus with 10 samples.

Results

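The genes described here are 35 transcripts that interferons are known to induce, followed in CD4+CD25+ T cells of mice with 0, 1 or 2 disrupted copies of Ptpn6, the gene of the tyrosine phosphatase SHP-1. They were chosen by name. Each was represented by the probe set of highest mean level among those whose array annotation names that gene alone. By this rule 32 of the 35 genes were measured, of 18193 genes on the array in all. They were 25 of 28 genes known mainly as targets of type I interferon and 7 of 7 GTPase and chemokine genes of the interferon gamma type. Ifi44 and Ly6a had no probe set that names them alone, and the one for Isg15 names a second gene as well, so these 3 were not used here. No filter on low values was applied to the 32, and 30 of them had a mean level at or above 7.62, the median over probe sets. The exceptions were Oasl1 and Cxcl9.

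Type I interferons are secreted when cells sense viral nucleic acid and act through the receptor pair IFNAR1 and IFNAR2, the kinases JAK1 and TYK2, and a complex that holds STAT2 and IRF9. That complex binds the interferon-stimulated response element (ISRE) in the promoters of its target genes. Interferon gamma, made by activated T and NK cells, acts through IFNGR1 and IFNGR2 on promoters with a gamma-activated site (GAS), and it strongly induces GTPases that attack vacuoles holding microbes and chemokines that attract T cells. Many genes answer to both kinds of interferon, so the division into classes is one of emphasis. SHP-1 is known as a negative regulator of JAK and STAT signalling in blood cells.

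RNA came from lymph node T cells of BALB/c mice aged 17 to 19 days, selected for CD4 and CD25 with a kit and not cultured or treated. There were 4 arrays from wild type mice (WT 1 to WT 4), 3 from mice heterozygous for the SHP-1 knockout (he 1 to he 3) and 3 from homozygous mice, which show the motheaten phenotype (me 1 to me 3). The labels call them biological replicates and say nothing further on separate animals, so any p measures the spread between these samples. RNA was amplified from 20 ng before labelling, and with so few arrays every comparison is of limited precision.

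Levels below are log2(intensity + 32) after quantile normalisation, so that 1 unit is a doubling of that quantity, and small levels are compressed. The arrays fell into 2 sets by their overall correlation, which the labels do not record: set A (WT 1, WT 2, he 1, me 1, me 3) and set B (WT 3, WT 4, he 2, he 3, me 2). The array me 3 stood apart within set A, with a mean correlation with set B of 0.93 against 0.88 for the rest of set A. Each array is therefore also set against the mean of the WT arrays of its own set. Ptpn6 was 9.55 to 9.83 in WT, 9.30 to 9.54 in he and 8.84 to 9.08 in me, with no overlap between genotypes. All 5 regulatory T cell markers listed, Foxp3 and Il2ra among them, were at or above the median level. In such bulk RNA, fewer cells of a type and less RNA per cell cannot be told apart.

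The promoters of these genes were searched for the letters of the 2 elements. The windows were those of RefSeq (GRCm38.p6), from 250 bases before to 50 bases after a transcription start, and 24 of the 32 measured genes had one. The ISRE pattern, which is GAAA, any 2 bases and GAAA (on either strand, so also TTTC, any 2 bases and TTTC), stood in 15 of these 24 genes, or 62.5%, against 3.99% of all 27025 genes with a window. It stood in 10 of 18 type I genes and in 5 of 6 gamma type genes. The GAS pattern, which is TTC, any 3 bases and GAA and reads the same way on both strands, stood in 6 of 24 genes, or 25%, against 9.55% of all genes. These were 5 of 18 type I genes and 1 of 6 gamma type genes. A match describes the letters and does not show binding. The stretches below show how the pattern, in capitals, lies in some of the genes named later. They read 5′ to 3′ along the gene's own strand. The first 5 were taken in order of p for me against WT. They come from the genes that the naming rule gives in full, where a window held a match. Ifi27l2a and Rtp4, which have no window, were thus passed over. The last 5 were taken after values had been seen. Usp18, Mx1 and Gbp6 also had no window, and Ifit2, Irf7 and Irf9 had one without an ISRE match.
Oas1a, chr5:120907526-120907570, minus strand, 2 overlapping matches: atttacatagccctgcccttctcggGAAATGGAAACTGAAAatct
Trim30a, chr7:104465195-104465254, minus strand: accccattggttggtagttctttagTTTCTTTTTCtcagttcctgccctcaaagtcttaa
Bst2, chr8:71537562-71537627, minus strand, 2 overlapping matches: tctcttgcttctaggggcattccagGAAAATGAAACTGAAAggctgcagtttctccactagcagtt
Ifih1, chr2:62646206-62646233, minus strand, past the start: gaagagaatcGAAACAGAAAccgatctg
Cxcl10, chr5:92349068-92349127, minus strand: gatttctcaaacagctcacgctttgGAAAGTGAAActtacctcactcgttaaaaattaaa
Ifit1, chr19:34640760-34640838, plus strand, 2 separate matches: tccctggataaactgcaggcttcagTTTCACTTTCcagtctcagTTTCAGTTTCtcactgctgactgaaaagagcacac
Ifit3, chr19:34583348-34583441, plus strand, 2 separate matches: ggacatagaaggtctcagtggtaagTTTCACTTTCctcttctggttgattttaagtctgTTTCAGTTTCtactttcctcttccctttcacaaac
Rsad2, chr12:26456538-26456597, minus strand: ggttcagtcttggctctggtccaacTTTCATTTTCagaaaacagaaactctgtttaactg
Gbp2, chr3:142620579-142620638, plus strand: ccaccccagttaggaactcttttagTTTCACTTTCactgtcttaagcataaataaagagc
Igtp, chr11:58199497-58199555, plus strand: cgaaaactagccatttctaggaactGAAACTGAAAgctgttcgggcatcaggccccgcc

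No contrast between genotypes called an interferon response gene, and the widest departures from WT lay on single arrays. On the array he 2, 26 of the 32 genes lay above all 4 WT arrays, against 13.4% of all genes on that array. These were 21 of 25 type I genes and 5 of 7 gamma type genes. On me 3 the count was 20 of 32, with 18 of 25 type I genes and 2 of 7 gamma type genes, against 12.1% of all genes. On me 1 it was 12 of 32, with 11 type I genes and 1 gamma type gene, against 17.3%. On he 1 it was 8 of 32, all of type I, against 14.6%. The other two mutant arrays had 5 of 32 each, against 23% of all genes on he 3 and 15.7% on me 2, so their counts lay near those of the array as a whole. The array he 2 held the highest of the 10 levels for 22 of the 32 genes, where it did so for 6.73% of all genes.

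The mean over the type I genes stood 1.04 above the WT arrays of the same set on he 2, 0.60 above on me 3 and 0.27 above on me 1. On he 1, me 2 and he 3 it stood 0.11, 0.06 and 0.03 above. The mean over the gamma type genes stood 0.90 above on he 2 and 0.15 above on me 3. On me 1 and he 1 it was -0.02, on he 3 it was -0.22 and on me 2 it was -0.23. Thus he 2 carried high levels of both classes, while on me 3 and me 1 the type I mean stood further from WT than the gamma type mean did.

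**Figure D1:**
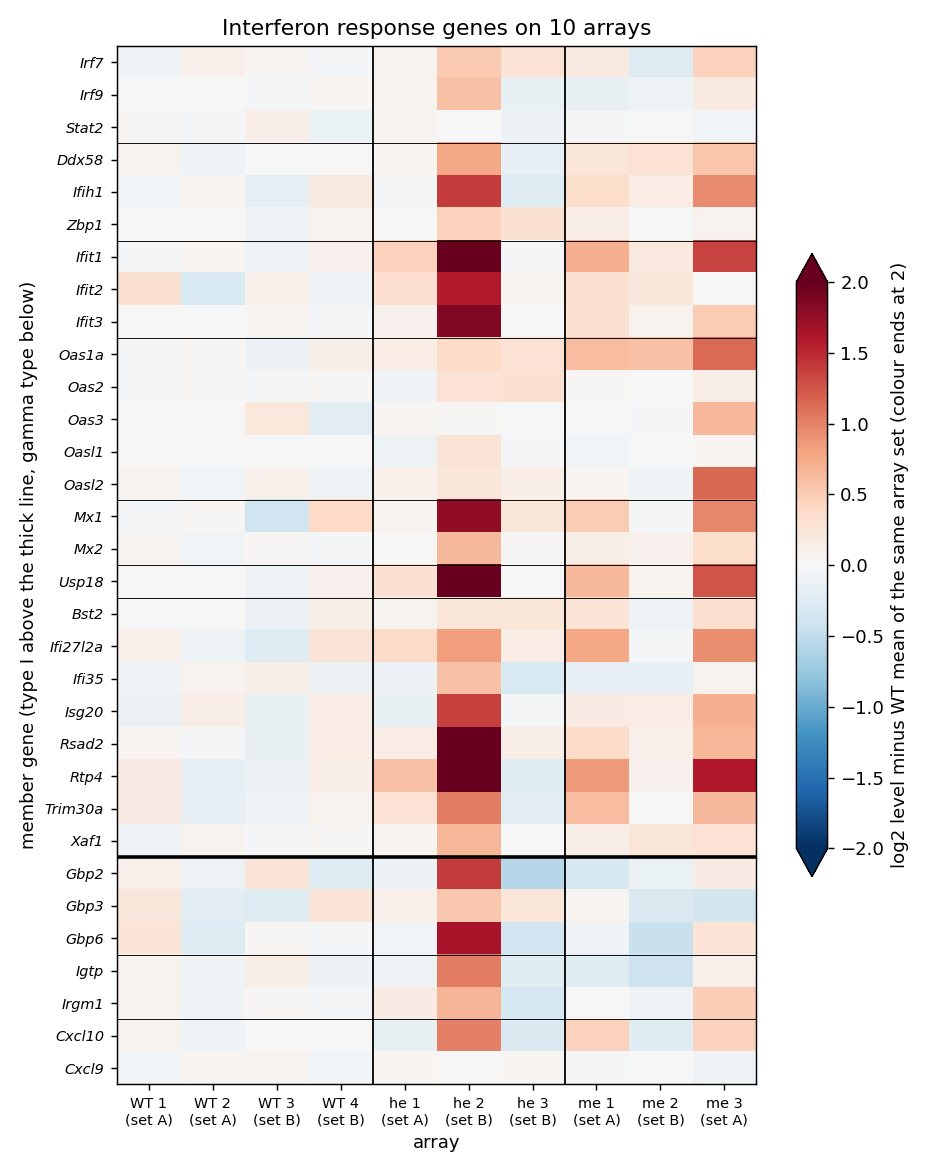
Log2 level of each measured gene (rows, by role, type I above the thick line and gamma type below) on each of the 10 arrays (columns), minus the mean of the WT arrays of the same array set. The colour scale ends at 2. The column of he 2 is dark in both classes, and me 3 is the next darkest, mostly in type I genes.

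**Figure D2:**
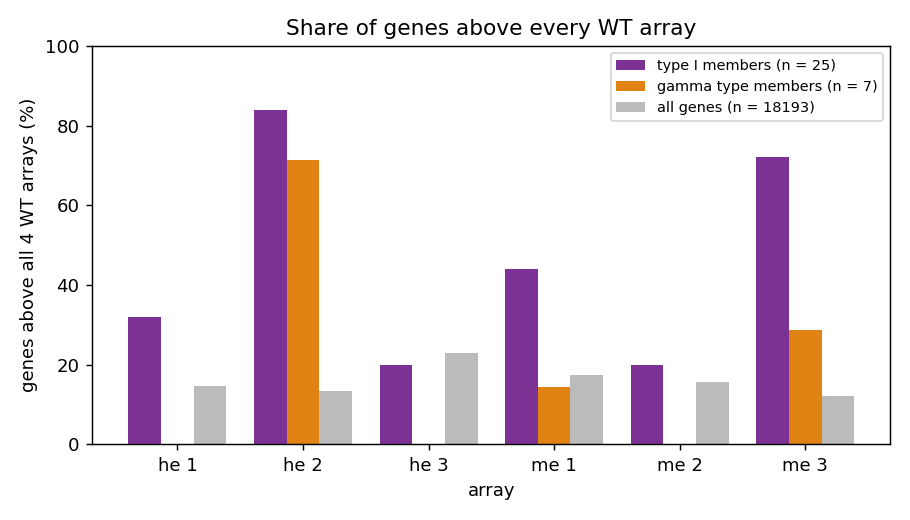
Share of genes (%) on each mutant array that lay above all 4 WT arrays, for the 25 type I genes, the 7 gamma type genes and all 18193 genes. The type I bar is tallest on he 2 (21 of 25) and me 3 (18 of 25), and the gamma type bar is tallest on he 2 (5 of 7).

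The interferon genes also led the he 2 array as a whole. Of 28 genes that stood more than 1 log2 unit above the WT arrays of their set on he 2, or 0.154% of all genes, 14 were members of the list. On me 3 such genes numbered 90, or 0.495% of all genes, and 5 were members (Rtp4, Ifit1, Usp18, Oasl2 and Oas1a). No member reached this on he 1, he 3, me 1 or me 2. Few genes of any kind did there: 0.0055%, 0.0495%, 0.0165% and 0.022% of all genes, in that order. Against the highest WT array of either set, 20 genes stood more than 0.5 above on me 3, or 0.11% of all genes. Of these 8 were members, without Oasl2 and Oas1a, which stood 0.01 and 0.29 above. Ranked by the distance above the highest WT array, the 50 leading genes of he 2 held 19 members, with Ifit1, Usp18, Rtp4 and Rsad2 at the head. The members are 0.176% of all genes. The 50 leading genes of me 3 held 10 members, behind Jchain, Ighm, Ighg3 and Igkv8-30, which are antibody transcripts. The 50 leading genes of me 1 held 5 members, those of he 1 held 2 and those of he 3 and me 2 held 0. Among the leaders of he 2 that were on neither list were Ifit1bl1, Ifi209, Gbp2b and Gbp8, relatives of the listed families.

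By genotype, no interferon gene passed the test. With limma, 0 of 45037 probe sets (0%) were called in me against WT, in he against WT, in me against he or in the F test over 3 genotypes, at an adjusted p under 0.05. The adjusted p of every member was 1 in each of these. An unadjusted p under 0.05 was reached by 282 probe sets in me against WT (0.626%), 134 in he against WT (0.298%) and 301 in me against he (0.668%). Among the 32 members there were 0, 1 and 0 such genes. In the fit that blocks on array set, 3 probe sets were called in me against WT (0.00666%) and 0 in the other contrasts. The unadjusted counts were then 1942 (4.31%), 960 (2.13%) and 1447 (3.21%), with 1, 1 and 2 members. None of the 3 called probe sets was one used for a member, and the lowest adjusted p of a member was 0.558, for Oas1a.

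In the me minus WT difference, 22 of 25 type I genes were above 0, with a median of 0.26, where 50.1% of all genes were above 0 with a median of 0. Of the gamma type genes 1 of 7 was above 0, and their median was -0.09. Within set A (2 me against 2 WT arrays) the type I median was 0.39, with 22 of 25 genes above 0. Within set B (1 me against 2 WT arrays) it was 0.02, with 14 of 25 above 0. Without me 3 the type I median was 0.18 and 18 of 25 genes were above 0, and without me 2 it was 0.38. With the array set and the cre hybridisation control in the fit together it was 0.02. The gamma type median was -0.06 within set A and -0.24 within set B.

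In the he minus WT difference, 22 of 25 type I genes and 7 of 7 gamma type genes were above 0, where 46.9% of all genes were, and the medians were 0.32 and 0.23. Without he 2 the medians were 0.11 and -0.18, with 18 of 25 and 2 of 7 genes above 0. Within set A, which holds he 1, they were 0.06 and -0.06. Within set B, which holds he 2 and he 3, they were 0.38 and 0.39. The gamma type median was 0.06 without normalisation between arrays and 0.04 with centring on the array median. The heterozygous gamma type median thus rested on he 2, while the type I median was smaller without that array and stayed above 0. The contrasts me minus WT and he minus WT share the 4 WT arrays. In the me minus he difference the medians were -0.13 for type I and -0.39 for gamma type genes with he 2, and 0.19 and -0.01 without it.

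**Figure D3:**
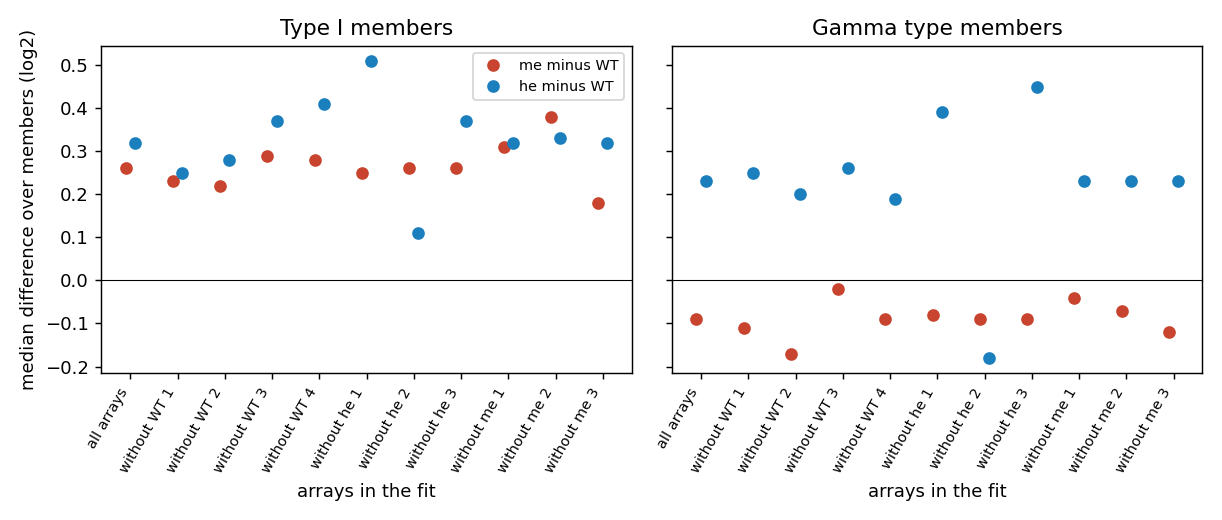
Median difference from WT (log2) over the 25 type I genes (left) and the 7 gamma type genes (right), with all arrays and with each array left out in turn. Leaving out he 2 takes the he minus WT median from 0.32 to 0.11 for type I genes and from 0.23 to -0.18 for gamma type genes, while the me minus WT medians stay between 0.18 and 0.38 and between -0.17 and -0.02.

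The IFIT proteins bind foreign RNA through tetratricopeptide repeats and block its translation. Ifit1, with 2 separate ISRE matches in the stretch printed above, was 7.43, 7.52, 7.42 and 7.59 on the WT arrays, 7.93, 10.63 and 7.47 on he and 8.18, 7.70 and 8.82 on me. Its level on he 2 was 3.13 above the WT arrays of the set, or 8.75-fold on the scale of intensity + 32. All 3 me arrays lay above all 4 WT arrays. It was the one member to do so, where 0.803% of all genes did. From WT to me the difference was 0.74 ± 0.66 (log2, SE), with limma's adjusted p at 1. The he minus WT difference was 1.19 ± 0.66, and 0.21 ± 0.28 without he 2.

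Ifit3 was 7.53 to 7.66 on the WT arrays, 7.73, 9.42 and 7.56 on he and 7.95, 7.64 and 8.16 on me. It was high on he 2, me 3 and me 1 came next, and me 2 fell within the WT range. Ifit2 followed he 2 but not me 3. It was 9.07, 8.45, 8.41 and 8.22 on the WT arrays, 9.10, 9.90 and 8.36 on he and 9.06, 8.54 and 8.77 on me, so that me 3 stood within the WT range.

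Usp18, the protease that removes ISG15 from proteins and also dampens signalling at IFNAR2, stood, like Ifit1, highest on he 2, then on me 3 and me 1. Its level was 7.55, 7.58, 7.51 and 7.68 on the WT arrays, 7.87, 10.00 and 7.60 on he and 8.21, 7.67 and 8.82 on me. It was 5.30-fold above the WT arrays of the set on he 2 and 2.39-fold on me 3. Its difference in me minus WT was 0.65 ± 0.52 (SE), with limma's adjusted p at 1. The arrays me 2 and he 3 fell within the WT range.

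Rsad2 encodes viperin, an enzyme that makes a chain-terminating nucleotide. It was 7.95, 7.87, 7.40 and 7.70 on the WT arrays, 8.06, 10.12 and 7.69 on he and 8.27, 7.65 and 8.57 on me, a 5.95-fold excess on he 2 and 1.58-fold on me 3. Rtp4, a chaperone of membrane receptors that is also an interferon-induced inhibitor of RNA viruses, was 8.58, 8.25, 8.96 and 9.21 on the WT arrays, 9.0, 11.42 and 8.85 on he and 9.26, 9.17 and 10.01 on me. It stood 2.34 above the WT arrays of the set on he 2 and 1.59 on me 3. Its me minus WT difference was 0.73 ± 0.58, with 1.22 within set A and 0.09 within set B.

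Mx1 and Mx2 are dynamin-like GTPases that block viruses. Mx1 was 7.76, 7.80, 7.71 and 8.51 on the WT arrays, 7.83, 9.89 and 8.35 on he and 8.29, 8.07 and 8.74 on me. The arrays he 2 and me 3 lay above every WT array, and WT 4 lay above the other WT arrays. Mx2 was 7.60 and 7.49 on the WT arrays of set A and 8.51 and 8.45 on those of set B, and he 2 at 9.13 lay 0.62 above the highest of these.

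**Figure D4:**
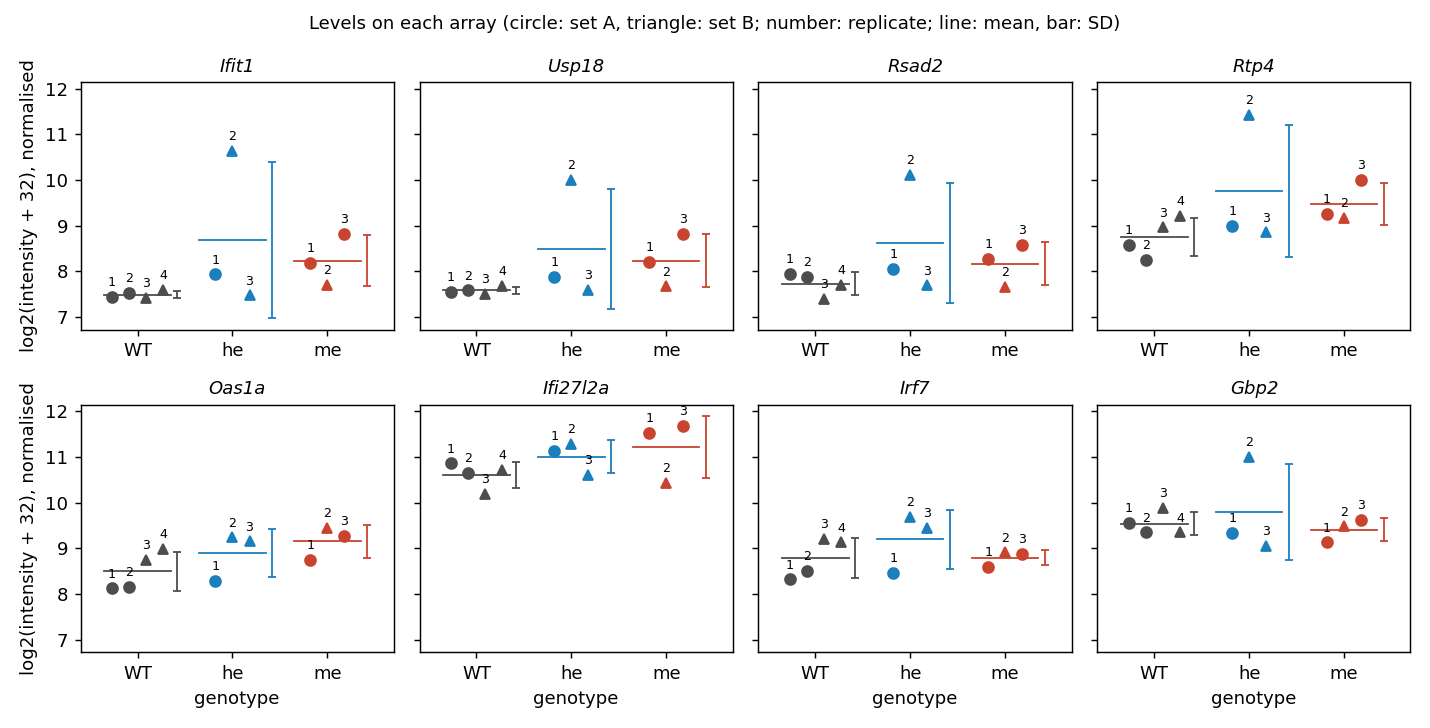
Normalised log2(intensity + 32) of 8 genes on every array by genotype, with circles for set A, triangles for set B, the replicate number beside each point, and the mean and SD of each genotype. For Ifit1, Usp18, Rsad2, Rtp4 and Gbp2 the point of he 2 stands far above the other he arrays; for Oas1a all 3 me arrays lie above the WT arrays of their own set.

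The OAS family, which makes or is related to the enzymes that make 2′-5′ oligoadenylate to activate RNase L, had a different order of arrays by count. On he 2 only 2 of the 5 genes lay above all WT arrays, and 4 of 5 did on me 3, mostly by little. Of all genes, 13.4% did so on he 2 and 12.1% on me 3. The me 3 excess over the highest WT array was 0.29 for Oas1a, 0.1 for Oas2, 0.03 for Oasl1 and 0.01 for Oasl2. On he 2 the excess was 0.26 for Oas1a and 0.12 for Oasl2. This count depends on array set. Against the WT arrays of its own set, he 2 stood further above than me 3 for Oas2 (0.30 against 0.12) and Oasl1 (0.27 against 0.05). For Oas1a, Oas3 and Oasl2 me 3 stood further above. Oas1a had the smallest p of the members for me against WT. It was 8.12, 8.16, 8.74 and 8.98 on the WT arrays, 8.29, 9.24 and 9.15 on he and 8.75, 9.45 and 9.27 on me. Every me array was above the WT arrays of its own set, but me 1 lay within the whole WT range. The WT levels of Oas1a were lower in set A (8.12 and 8.16) than in set B (8.74 and 8.98). On me 3 it stood 1.13 above the WT arrays of set A but 0.29 above the highest WT array. In me minus WT it stood at 0.65 ± 0.30 (log2, SE), with limma's adjusted p at 1, and 0.77 ± 0.13 once the array sets were blocked, with limma's adjusted p at 0.558. It was 0.87 within set A and 0.59 within set B, and 0.25 with the cre control as a covariate, where the adjusted p in limma was 0.0619. The range of its adjusted p over the settings in which it was tested was 0.0619 to 1.

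Further OAS genes followed array set. Oas3 was 7.92 and 7.91 on the WT arrays of set A and 9.16 and 8.74 on those of set B. Oasl2 was 7.24 and 7.13 on the first and 8.32 and 8.12 on the second. On me 3, the set A array most like set B, these genes stood at 8.58 and 8.33, that is 0.67 and 1.14 above the WT arrays of set A but -0.58 and 0.01 from the highest WT array. Oas2 was 7.98 and 8.03 on the WT arrays of set A and 7.55 and 7.60 on those of set B, the opposite order. The fifth, Oasl1, ranged from 7.27 to 7.66 over all arrays.

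Of the sensors of foreign nucleic acid, Ifih1 encodes MDA5, Ddx58 encodes RIG-I and Zbp1 binds Z-form nucleic acid. Ifih1 was 8.77, 8.87, 8.36 and 8.71 on the WT arrays, 8.78, 9.94 and 8.28 on he and 9.17, 8.68 and 9.77 on me. The arrays he 2, me 3 and me 1 lay above all WT arrays and me 2 did not. Its difference in me minus WT was 0.53 ± 0.38 (SE), with limma's adjusted p at 1. Ddx58 was 10.03 on he 2 against 8.75 to 9.26 in WT, and 9.06, 9.54 and 9.38 in me. Zbp1 was 8.22 to 8.37 in WT and 8.31, 8.75 and 8.60 in he. Its he minus WT difference of 0.24 ± 0.10 had the smallest p among the members in that contrast, with limma's adjusted p at 1. Without he 2 the difference was 0.15 ± 0.10.

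Among the other effectors, Ifi27l2a, a small mitochondrial protein of the IFI27 family, was 10.86, 10.65, 10.20 and 10.72 on the WT arrays, 11.13, 11.29 and 10.61 on he and 11.53, 10.44 and 11.68 on me. All he and me arrays but he 3 and me 2 lay above the WT range. For me minus WT it was 0.61 ± 0.31 (SE), with limma's adjusted p at 1, and it was 0.85 within set A and -0.02 within set B. Trim30a, a ubiquitin ligase, was 9.25, 8.93, 9.06 and 9.20 on the WT arrays, 9.38, 10.15 and 8.92 on he and 9.71, 9.12 and 9.74 on me. It was above all WT arrays on he 2, me 3, me 1 and he 1. At its other probe set, of mean level 9.17, only he 2 (10.02) and me 3 (10.03) were above all WT arrays. There WT 2 was 9.33, me 1 was 9.31 and he 1 was 9.0.

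Bst2 encodes tetherin, which holds budding virus at the cell surface. It was 7.72, 7.72, 7.45 and 7.68 on the WT arrays, 7.77, 7.80 and 7.80 on he and 8.0, 7.46 and 8.05 on me. All 3 he arrays lay above all 4 WT arrays, by 0.08 or less. It was the one member to do so, where 0.302% of all genes did, and WT 3 was low within WT. Isg20, an exonuclease, was 10.09 on he 2 and 10.13 on me 3 against 8.57 to 9.54 in WT. Xaf1, a partner of the apoptosis inhibitor XIAP, was 9.03 on he 2 against 8.18 to 8.39 in WT. Ifi35 was 11.84 on he 2 against 11.14 to 11.75 in WT, an excess of 0.09.

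The 3 transcription factors of the type I response stood 0.01 to 0.59 above the WT arrays of the set on he 2. Irf7, the factor that amplifies type I interferon production, was 8.32, 8.51, 9.20 and 9.13 on the WT arrays, 8.47, 9.69 and 9.44 on he and 8.60, 8.91 and 8.87 on me. The arrays he 2 and he 3 lay above all WT arrays, and every me array lay within the WT range. Irf9, the DNA-binding partner of STAT2, was 9.07, 9.04, 9.52 and 9.61 on the WT arrays, 9.12, 10.15 and 9.42 on he and 8.91, 9.47 and 9.24 on me. Of the mutant arrays, he 2 was the one above all WT arrays, and me 1 was below them. Stat2 was 7.70 to 7.97 on the WT arrays, 7.83, 7.84 and 7.72 on he and 7.74, 7.83 and 7.71 on me, within the WT range on every array. Differences in me minus WT were 0.00 ± 0.32 for Irf7, -0.10 ± 0.26 for Irf9 and -0.04 ± 0.08 for Stat2, with limma's adjusted p at 1 for each.

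The guanylate-binding proteins are large GTPases that coat and break microbe-holding vacuoles. Gbp2 was 9.56, 9.35, 9.88 and 9.35 on the WT arrays, 9.33, 11.01 and 9.05 on he and 9.13, 9.48 and 9.62 on me. On he 2 it was 2.64-fold above the WT arrays of the set, he 1, he 3 and me 1 were below all WT arrays, and me 2 and me 3 were within them. Gbp6 was 9.86, 9.34, 9.62 and 9.58 on the WT arrays, 9.54, 11.25 and 9.22 on he and 9.53, 9.15 and 9.88 on me. It was 3.13-fold above on he 2. Gbp3 was 10.53 on he 2 within a WT range of 9.73 to 10.88. For these 3 genes the me minus WT differences ran from -0.13 to -0.08, with limma's adjusted p at 1 for each.

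Igtp and Irgm1 are immunity-related GTPases, Irgm1 being the one that keeps the others off the cell's own membranes. Igtp was 11.12, 10.97, 11.16 and 10.92 on the WT arrays, 10.94, 12.07 and 10.79 on he and 10.81, 10.62 and 11.14 on me. The array he 2 was 2.05-fold above the WT arrays of its set, he 3, me 1 and me 2 were below all WT arrays, and me 3 was within them. The me minus WT difference was -0.18 ± 0.28 (SE), with limma's adjusted p at 1. Irgm1 was 8.68 and 8.54 on the WT arrays of set A and 10.12 and 10.06 on those of set B, so that its he 2 level of 10.77 lay 0.65 above the highest WT array. On me 3 it was 9.10, which is 0.49 above the WT arrays of set A and 1.03 below the highest WT array.

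Cxcl10 and Cxcl9 encode ligands of CXCR3, which draw activated T cells. Cxcl10 was 8.40, 8.25, 7.87 and 7.84 on the WT arrays, 8.18, 8.87 and 7.57 on he and 8.79, 7.62 and 8.79 on me. It lay above all WT arrays on he 2, me 1 and me 3 and below all of them on he 3 and me 2, and was the one gamma type gene with a me minus WT difference above 0, at 0.31 ± 0.37 (SE), with limma's adjusted p at 1. Cxcl9 ranged from 7.17 to 7.48 over the 10 arrays, below the median level, with no array of he or me above the WT range.

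**Figure D5:**
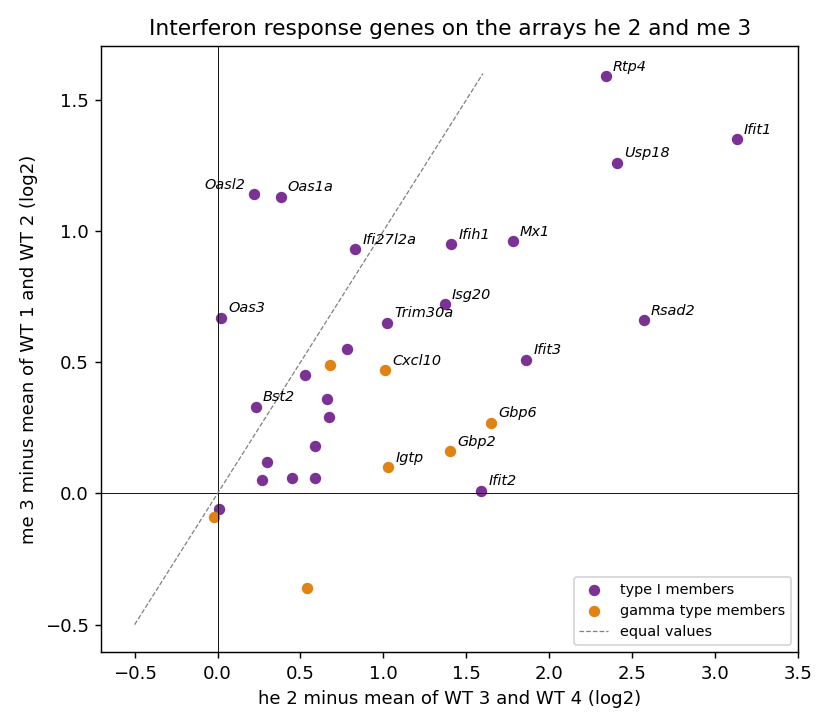
Difference from the WT arrays of the same set (log2) on he 2 (horizontal axis) and me 3 (vertical axis) for the 32 genes, with type I genes in purple, gamma type genes in orange and a dashed line of equal values. Most genes lie right of the line; Oasl2, Oas1a, Oas3, Ifi27l2a and Bst2 lie left of it, and Gbp2, Gbp6, Igtp and Ifit2 lie above 1 on he 2 and at 0.27 or below on me 3.

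The me arrays differed among themselves. Of the 32 genes, 12 lay above all WT arrays on me 1 and me 3, counted only if on both, where 4.89% of all genes did. On me 2 the 5 genes were Ifit1, Oas1a, Mx2, Ddx58 and Xaf1. Set against the WT arrays of the same set, all 3 me arrays were above for 6 genes (Ifit1, Ifit3, Oas1a, Mx2, Ddx58 and Xaf1), where 4.8% of all genes were. For he the 3 genes were Oas1a, Oasl2 and Bst2, where 2.7% of all genes were.

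The other genes of the interferon pathway were taken from a list of 66, of which 61 were measured, and 0 of 61 were called in either direction in any contrast in limma. On he 2, 32 of the 61 lay above all WT arrays, against 13.4% of all genes. Of the further type I targets 17 of 22 did, and of the further gamma targets 7 of 11. Iigp1, another immunity-related GTPase, was 10.90 on he 2 against 8.55 to 9.20 in WT. Cmpk2, a nucleotide kinase encoded beside Rsad2, was 9.31 against 7.41 to 8.03. Of the 9 receptors and kinases 4 lay above WT on he 2, among them Ifnar1 at 10.03 against 8.71 to 9.87 and Ifngr1 at 10.67 against 9.32 to 10.26.

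Of the 4 interferon genes measured, 0 lay above all WT arrays on he 2, against 13.4% of all genes. Ifng was 7.84 there against 8.03 to 8.48 in WT, and Ifnb1 was 7.90 against 7.35 to 8.15. Of the 4 inhibitors 0 lay above, and Socs1 was 7.21 against 7.10 to 7.48. On me 3, 20 of the 61 genes lay above all WT arrays, against 12.1% of all genes. These held 12 of 22 further type I targets and 2 of 11 further gamma targets. On me 1 the count was 13 of 61, near the share of all genes there, 17.3%. The smallest p for me against WT among these genes belonged to Dhx58, the RNA helicase LGP2, at 0.21 ± 0.10 (SE), then to Ifi203, a DNA-binding protein of the HIN-200 family, at -0.15 ± 0.08, to Phf11 at 0.34 ± 0.20 and to the kinase Tyk2 at 0.23 ± 0.15, with limma's adjusted p at 1 for each.

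Markers of other cell types were read on the same arrays. On he 2, 1 of 7 plasmacytoid dendritic cell markers, 2 of 11 macrophage and monocyte markers, 0 of 6 conventional dendritic cell markers, 1 of 8 neutrophil, 1 of 6 B cell, 2 of 7 cytotoxic CD8 and NK and 1 of 7 plasma cell markers lay above all WT arrays. Of all genes, 13.4% did so on that array. Summed intensity of the macrophage and monocyte list was 2363 on he 2 against 2353 to 2689 in WT, and that of the plasmacytoid list was 2019 against 1418 to 2046. Siglech, which defines plasmacytoid dendritic cells, was 7.46 on he 2 against 7.41 to 7.52 in WT, with a mean level below the median. Ccr9, the plasmacytoid marker above all WT arrays on he 2, was 9.58 there against 7.49 to 9.38 in WT. On me 3 and me 1, 4 of 7 plasma cell markers lay above all WT arrays, where 12.1% and 17.3% of all genes did. The summed intensity of the plasma cell list was 17393 and 13224 against 4887 to 6961 in WT and 5379 on he 2. On me 3, 4 of 8 neutrophil and 4 of 6 B cell markers also lay above. The part of these cells in the me values was not tested. Cd8a was 7.54 to 7.76 on all arrays of set A and 11.34 to 12.45 on all arrays of set B, with he 2 the lowest of set B. The partner chain Cd8b1 did not share this split: it was 7.43 to 7.80 on set A and 7.38 to 7.57 on set B. Prf1, also on the cytotoxic list, was 7.55 to 7.77 on set A and 7.40 to 7.53 on set B.

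The array he 2 lay close to its set, or at its edge, in the measures of quality at hand. Its mean correlation with set B was 0.98. Its median intensity was 176, the lowest of set B, against 180 to 188 on the rest. Its ratio of 3′ to 5′ Gapdh control signal was 7.88, also the lowest of set B, against 7.9 to 9.92 on the rest and 7.84 to 9.53 in WT. On me 3 that ratio was 13.83, the highest of the 10 arrays, and it was 10.88 on me 1 and 9.92 on me 2. The cre hybridisation control was 13192 on me 3 against 21736 to 27388 on the rest of set A. The part of these measures in the me 3 values was not tested beyond the fits with them as covariates. The me minus WT type I median was 0.31 with the Gapdh ratio and 0.25 with the cre control as the one covariate.

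Of the 32 genes, 11 had more than 1 probe set, and these did not all follow each other. For Gbp2 the he 2 excess over the WT arrays of the set was 1.40 at the probe set used and 1.23 at the other, and for Gbp6 it was 1.65 and 1.95. For Rtp4 it was 2.34 at the probe set used and 0.06 at the other, whose mean level was 7.48. For Rsad2 it was 2.57 at the probe set used and 0.35 and 0.87 at the other two. For Ifi35 it was 0.59 at the probe set used and 0.04 and 0.75 at the others. With the second brightest probe set in place of the first, over the genes that have one, the me minus WT type I median was 0.05.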

How the data were processed

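The authors deposited 1 linear intensity value for each probe set of each Affymetrix mouse array. How these were summarised, background-corrected and scaled is not given in the sources used here. The medians of the arrays were 148 to 188 and the lowest values 72.4 to 81.5. Of 45101 probe sets 64 controls were left out. The array annotation names 1 gene for 34945 of the rest, several for 932 and none for 9160.

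Values were taken as log2(intensity + 32) and quantile normalised. Groups came from the sample titles. The contrasts were fitted to all 10 arrays with limma 3.58.1 (R 4.3.3), which left 7 residual degrees of freedom, and p was adjusted by Benjamini-Hochberg over 45037 probe sets, with 0.05 as the threshold. The procedure was tested on simulated data with independent noise and no difference between array sets. That run does not show how well it recovers differences where the sets differ, as they do here. Array sets came from average linkage on 1 minus Pearson's correlation. Genes named with every array's value were the 6 type I and 3 gamma type genes of smallest p for me against WT, then Irf7, Stat2, Irf9, Gbp2, Cxcl10 and Cxcl9. Ifit1, Rsad2, Usp18, Ifit2, Ifit3, Mx1 and Gbp6 were added after their values were seen. Of the pathway list, 4 genes were named by the same p, and the others after their values were seen. Members and lists, 3 of whose genes were matched by synonym, were chosen with earlier results of these data known. Promoters were searched for exact letters. The alternatives were the replicate block, array set and sex, the 2 quality measures, pseudocounts of 1 and 128, other normalisation, a filter on low values, another prior, other probe sets and leaving out each array. Sex was not taken from the labels but read from Xist against Eif2s3y. By this WT 1, WT 3, he 1, he 2, he 3 and me 3 were female. WT 2, WT 4, me 1 and me 2 were male, so sex was not balanced over the genotypes.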

Additional observations from a re-analysis of the deposited data

Results flagged for a closer look

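Within the WT group, 1 of 4 arrays stood apart by Dixon's criterion at 2 of the 32 genes. Chance alone marks about 1 in 20 such groups. Mx1 was 8.51 on WT 4, where the next highest WT array was 7.80. Bst2 was 7.45 on WT 3, where the next lowest was 7.68. Mx1 was thus above all WT arrays on he 2 and me 3 even against the high WT 4. Groups of 3 arrays, he and me, were not tested in this way, so the level of he 2 was not put to this criterion.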

How the results depend on the processing

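No member was called, so no call could be lost or reversed. The me minus WT type I median kept its sign in 28 settings (0.02 to 0.39), as did the he minus WT one (0.06 to 0.51). With set and sex in the fit the he minus WT medians were 0.22 (type I) and 0.06 (gamma type). The me minus WT medians were then 0.35 and 0. Probe sets called in me against WT numbered 3 with array set as a block, 2178 with the cre control as a covariate and 0 to 2 with 1 array left out. The 2 came without me 2, as did 2 in me against he and 2 over the 3 genotypes (0 to 2 for each). Over 20 members named with every value, 0 were called in any setting, and 23 of 546 me minus WT values changed sign. The he minus WT gamma type median was -0.06 within set A and -0.18 to 0.45 with 1 array left out. The me minus he type I median was 0.01 with set and sex, 0.33 within set A and -0.28 to 0.19 with 1 array left out, and the gamma type one was 0.04 within set A and -0.57 to -0.01 with 1 array left out. The number of members above all WT arrays on he 3 was 2 with centring and 5 to 8 with a WT array left out, and on me 2 it was 5 to 9, the highest without WT 3. On he 2 it was 23 to 29 in the settings run. With the replicate block the me minus WT medians were 0.28 (type I) and -0.09 (gamma type), the he minus WT ones 0.41 and 0.19, and 0 probe sets were called in every contrast. For arrays of the same number, deviations from the group means correlated between -0.87 and 0.94, above 0.1 in 5 of 9 pairs. Pairs within 1 array set lay at 0.69 to 0.94 and pairs across the sets at -0.87 to -0.4. The correlations thus followed array set and cannot show whether arrays of the same number were paired. The causes of the changes between settings were not tested. The lowest values near 72.4 to 81.5 compress differences at dim probe sets such as those of Cxcl9.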
